A study of Mus musculus with 42 samples.

Results

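Gene expression in the arcuate nucleus (ARC) of fasted mice was compared with that of fed mice. The comparison used 10 of the 42 libraries of the series, namely the 5 fasted and the 5 fed libraries whose column names in the deposited table carry the label of the ARC. All mice were adult wild-type males of the C57/BL6 strain. Fed mice had food ad libitum, and fasted mice had been deprived of food for 24 hours before they were killed. The ARC was dissected from stained brain cryosections by laser-capture microdissection, its RNA was amplified with a NuGEN Ovation kit, and sequencing gave single-end reads that do not tell the strand.

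The ARC lies at the base of the hypothalamus, where hormones of the blood reach neurons that control feeding. Neurons that make AGRP and NPY drive eating and are active when energy is short, and neurons that make POMC restrain eating through melanocortin receptors. Leptin from fat, insulin and the stomach hormone ghrelin act on these neurons through receptors that the neurons carry.

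Values are RPKM (reads per 1 kilobase of a gene, scaled to the size of the library), and the level of a gene with no reads was above 0 (median 1.601 RPKM over the genes that had one). Estimated depth of the ARC libraries ranged from 3.83 to 8.76 M reads. The libraries fell into 3 sets that share these no-read levels. The first set held fasted 1 and fed 1, the second held numbers 2 and 3 of each group, and the third held numbers 4 and 5. Fasted 1 and fasted 3 stood apart from the other ARC libraries, at -71.2 on the first principal component (22.1% of the variance) and at -61.5 on the second (15.6%). The label of the tissue held against its markers, since 9 of the 9 markers of ARC neurons tested were higher in the fed ARC than in the mean of the other 3 nuclei (limma, adjusted p under 0.1), as were 2.38% of all genes. In a bulk sample, fewer cells of a type and less RNA per cell cannot be told apart. The methods of the study call the libraries of a nucleus within a group biological replicates.

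Fasting changed 19 of 33579 genes in the ARC (0.0566%), at an adjusted p under 0.1 by limma on log2(RPKM + 1). Expression of 13 genes rose (0.0387%) and that of 6 fell (0.0179%). The genes that rose included the peptide gene Agrp, the leptin receptor Lepr, the growth hormone receptor Ghr, and the genes Fam107a, Glul, Cdkn1a and Mt2, which glucocorticoid hormones induce in many tissues. Among those that fell were the chaperone Hsp90aa1, the fatty acid desaturase Scd2, the transcriptional repressor Bhlhe41 and Rasgrp1, an activator of RAS. In 11 of the 19 genes each fasted library lay outside the range of the fed libraries, against 0.742% of all genes tested. Within the 3 sets, 19, 18 and 19 of these genes changed in the same direction as over all libraries, with Gm6899 at a change of 0 in the second set. The genes were picked by a test on these same libraries, so both counts describe them and add no separate support. Only Fam107a, Lepr, Ghr and the ID ENSMUSG00000074303 kept an adjusted p under 0.1 whichever ARC library was left out. Without fasted 1, the number of genes past the threshold was 6, of which 5 were among the 19. It was 10, 11 and 7 without fed 2, fed 3 and fed 4, and 31, 31 and 30 without fasted 2, fasted 3 and fasted 5. Before adjustment, 2517 genes (7.5%) had a p under 0.05. The 33579 genes include some with few or no reads. A fit to the 10 ARC libraries alone, which does not borrow the spread of the other nuclei, put 0 genes past the threshold and 1518 at an unadjusted p under 0.05.

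**Figure D1:**
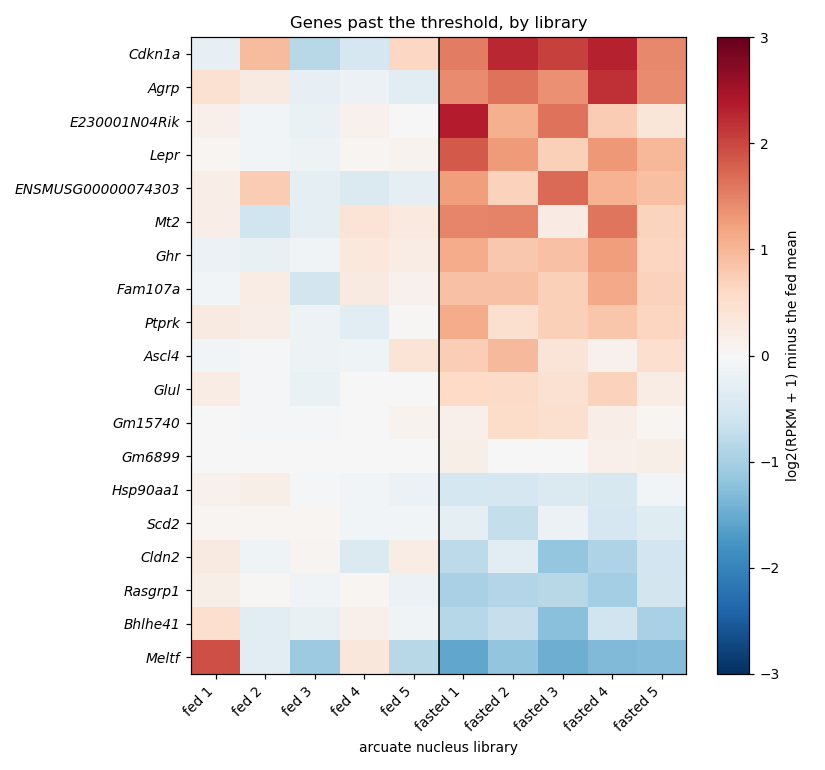
Heat map of the 19 genes past the threshold in the 10 arcuate libraries. Each row is a gene, each column a library (fed to the left of the line, fasted to the right), and colour gives log2(RPKM + 1) minus the mean of the fed libraries, from -1.57 to 2.35 on a scale that ends at 3 in both directions. Genes at the top were higher and genes at the bottom lower in fasted libraries, and fed 1 stands apart in Meltf.

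Among the feeding peptides, Agrp rose past the threshold. Its partner Npy was higher in every fasted library than in any fed one but did not pass the threshold of this fit. The study, with a model of read counts, reports that fasting raised Agrp, Npy and Lepr in the wild-type ARC. Agrp (chr8:105566698-105637393, GRCm38) encodes the inverse agonist of melanocortin receptors, and 11.25% of its exon length overlaps Gm5914. Its level was 179.3, 156.7, 109.8, 115.8 and 104.8 RPKM in fed libraries 1 to 5. Fasted libraries 1 to 5 held 350.8, 403.4, 341.2, 596.9 and 351.5 RPKM. Every fasted library was above every fed one. The mean was 133 ± 32.9 RPKM in fed and 409 ± 108 RPKM in fasted libraries (SD, n = 5), a log2 change of 1.61 with an SE of 0.33 and an adjusted p of 0.0613. The exact permutation p of 0.00794 is the smallest that 5 against 5 libraries can give. Without fasted 4, the highest library, the log2 change was 1.46 and the adjusted p was 0.118.

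Npy encodes a peptide that stimulates eating and is made in the same neurons as AGRP. Its fed libraries held 314.2, 358.7, 453.1, 284.2 and 316.7 RPKM, and the fasted ones held 1104, 602.9, 590.6, 1428 and 841.3 RPKM. These ranges did not overlap either (exact permutation p = 0.00794). The fasted libraries were far apart. The log2 change of 1.33 had an SE of 0.44 and an adjusted p of 0.464 by limma. That SE, like every SE given here, rests on a spread shared by all 42 libraries, not by the ARC libraries alone. Npy was low in the fed ventromedial, dorsomedial and paraventricular nuclei, at 12.66 ± 14.45, 6.65 ± 3.63 and 7.52 ± 2.48 RPKM. Their part in the SE was not tested. Within the second set of libraries the log2 change was 0.56, against 1.81 and 1.87 in the other 2 sets.

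Pomc, the precursor of the melanocortins, held 518 ± 79.2 RPKM in fed and 365 ± 70.7 RPKM in fasted libraries (n = 5). Its log2 change was -0.51 (SE 0.30, adjusted p = 0.77). Fasted 1 was lowest at 262.5 RPKM, and fasted 3 at 449.5 RPKM was above the lowest fed library at 414.2 RPKM. Cartpt, whose CART peptide is made with POMC in mouse ARC neurons, held 387 ± 71 and 250 ± 79 RPKM, a log2 change of -0.65 (SE 0.29, adjusted p = 0.647). Here fasted 1 at 382.7 RPKM lay among the fed libraries, and the other 4 fasted libraries lay at or below 254.7 RPKM, under each fed one.

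Of the 19 peptide genes tested, 1 passed the threshold and the median log2 change was 0.014, beside a median of 0 over all genes tested. An unadjusted p under 0.05 was reached by 4 higher and 1 lower member, where 4.23% and 3.27% of all genes did so. Every list that follows can be set beside these shares and the median of 0. They include genes with few or no reads, so they are no matched background for lists of expressed genes. The higher members besides Agrp and Npy were Nucb2, the precursor of nesfatin, with 46.5 ± 10.1 and 62.7 ± 7.75 RPKM (log2 change 0.44, adjusted p = 0.616), and Vgf, with 25.3 ± 7.35 and 37.1 ± 10.05 RPKM (0.55, adjusted p = 0.647). Peptides of other ARC neurons had log2 changes within 1 SE of 0 (Gal -0.06, Pdyn 0.03, Tac1 -0.19, Ghrh 0.29) or within 2 (Sst 0.36). The enzymes that cut peptide precursors also showed no change past the threshold. Pcsk1 held 18.5 and 20.3 RPKM (log2 change 0.16, SE 0.21), Pcsk2 17.2 and 20.8 RPKM (0.26, SE 0.11, adjusted p = 0.647), and Cpe 539 and 533 RPKM (-0.02, SE 0.08).

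**Figure D2:**
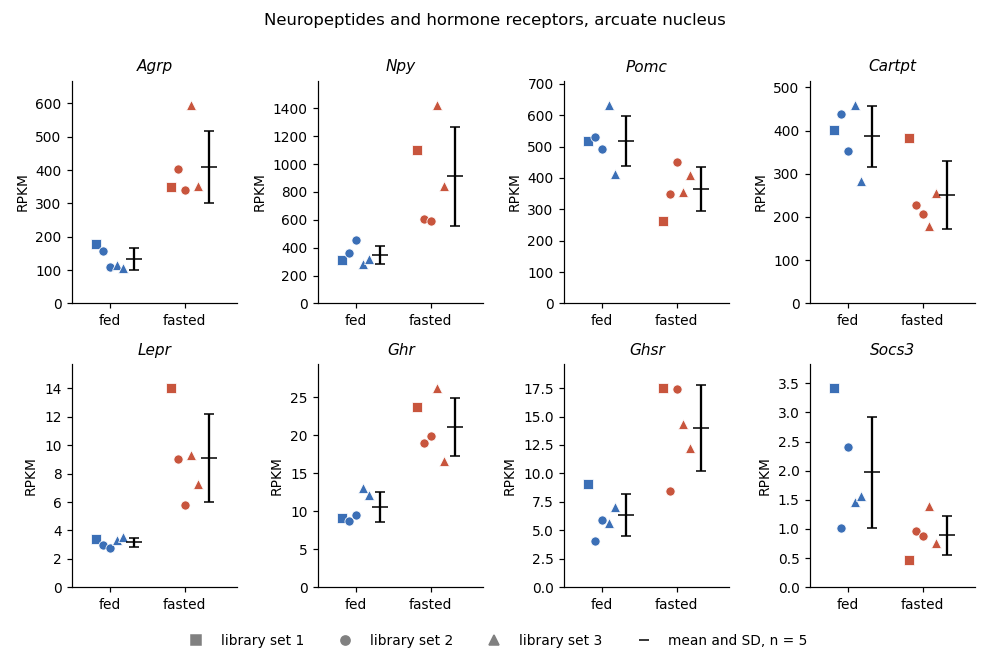
RPKM of 4 peptide genes and 4 genes of hormone signalling in each arcuate library, fed and fasted, with the mean and SD of 5 libraries beside the points and a marker shape for each set of libraries. Fasted libraries lie above all fed libraries for Agrp, Npy, Lepr and Ghr, and the groups overlap for Pomc, Cartpt, Ghsr and Socs3.

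Receptors for hormones of energy balance gave 2 of the 3 lowest p-values of all genes. Lepr (chr4:101717404-101815352) encodes the leptin receptor in all its isoforms, which a value per gene does not separate. The fed libraries held 3.36, 2.94, 2.74, 3.32 and 3.52 RPKM, close to each other. Fasted libraries held 14.01, 9.03, 5.80, 9.34 and 7.25 RPKM, each above the fed range. The log2 change was 1.22 (SE 0.17, adjusted p = 0.000651) and was 1.78, 1.11 and 1.07 within the 3 sets. Without fasted 1 it was 1.07 with an adjusted p of 0.00616.

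Ghr (chr15:3317760-3583492) encodes the growth hormone receptor. It held 9.08, 8.69, 9.496, 13.1 and 12.2 RPKM in fed and 23.8, 19.0, 19.9, 26.2 and 16.7 RPKM in fasted libraries. The lowest fasted library was above the highest fed one, and the means of 10.50 ± 1.98 and 21.1 ± 3.83 RPKM differed 2.01-fold. The log2 change was 0.94 (SE 0.15, adjusted p = 0.00255), and 1.30, 1.02 and 0.69 within the 3 sets. The ghrelin receptor Ghsr, which signals hunger from the stomach, held 9.08, 4.08, 5.92, 5.66 and 7.02 RPKM in fed libraries. The fasted ones held 17.5, 8.44, 17.4, 14.4 and 12.2 RPKM, and only fasted 2 was below the highest fed library. Its log2 change of 1.02 (SE 0.27) had an adjusted p of 0.263 and an exact permutation p of 0.0159.

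Of 21 receptor genes, Lepr was the 1 that passed the threshold, and the median log2 change was -0.03. At an unadjusted p under 0.05, 5 were higher and 1 was lower. The insulin receptor Insr held 11.9 ± 2.36 and 17.3 ± 4.73 RPKM (log2 change 0.48, SE 0.17, adjusted p = 0.529). Its log2 change was 1.34 and 0.53 within the first and the second set and -0.01 within the third. The IGF1 receptor Igf1r held 5.94 ± 1.71 and 8.27 ± 2.13 RPKM (0.42, adjusted p = 0.647), and the serotonin receptor Htr1b 1.22 ± 0.304 and 2.197 ± 0.704 RPKM (0.50, adjusted p = 0.502). Receptors of the peptides made in the ARC itself did not pass. Mc3r, the melanocortin receptor of ARC neurons, held 10.9 and 9.88 RPKM (-0.17, SE 0.28). Mc4r was low and varied between libraries, at 1.98 ± 1.45 and 2.35 ± 1.94 RPKM, from 3.36 to 63 estimated reads a library. The NPY receptors Npy1r, Npy2r and Npy5r had log2 changes of -0.46, -0.59 and -0.53 (adjusted p = 0.748, 0.734 and 0.747).

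Genes downstream of these receptors did not pass the threshold. Socs3, which STAT3 induces after leptin and which restrains leptin signalling, was low in both groups. Its fed libraries held 3.41, 1.01, 2.41, 1.47 and 1.56 RPKM and its fasted ones 0.471, 0.963, 0.871, 1.39 and 0.753 RPKM, from 1.19 to 35.3 estimated reads a library. The log2 change was -0.62 (SE 0.21, adjusted p = 0.514). Stat3 held 15.7 and 13.9 RPKM (-0.15, SE 0.20) and the kinase Jak2 12.1 and 11.1 RPKM (-0.14, SE 0.19). Stat5b, a transducer of growth hormone signals, held 8.74, 9.24, 11.97, 9.54 and 11.4 RPKM in fed and 3.89, 5.18, 9.41, 6.86 and 6.15 RPKM in fasted libraries. Fasted 3 lay within the fed range and the other 4 below it (log2 change -0.65, SE 0.20, adjusted p = 0.365). Socs2 and Cish, which growth hormone induces through STAT5, held 2.44 and 1.69 RPKM and 1.08 and 0.697 RPKM (log2 changes -0.32 and -0.28, adjusted p = 0.886 and 1). Of 13 genes of the growth hormone axis 1 passed, with a median log2 change of -0.02.

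In the list of insulin and FoxO signalling 0 of 25 genes passed the threshold, with 3 higher and 2 lower at an unadjusted p under 0.05 and a median of 0.06. FoxO factors are held out of the nucleus by insulin signals and activate Agrp in feeding neurons. Foxo1 held 16.4 ± 1.98 and 25.8 ± 6.69 RPKM, with no overlap between the groups (log2 change 0.60, SE 0.29, adjusted p = 0.655). Foxo4 held 1.28 ± 0.428 and 3.08 ± 1.45 RPKM (0.79, adjusted p = 0.553), with fasted 1 highest at 5.22 RPKM. Foxo6 went the other way at 3.72 ± 2.36 and 1.20 ± 1.11 RPKM (-1.05, adjusted p = 0.526), with fasted 3 at 3.17 RPKM among the fed values. The insulin receptor substrates Irs1 and Irs2 had log2 changes of 0.42 and 0.39, and the kinase subunit Pik3r1 held 28.2 RPKM in both groups.

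Glucocorticoid-induced genes had the highest median log2 change of the pathway lists examined. Glucocorticoids are adrenal hormones that rise in fasting rodents and act through a nuclear receptor that binds DNA. Of 20 such genes, 4 rose and 0 fell past the threshold, 11 were higher at an unadjusted p under 0.05, and 19 had a log2 change above 0. Of all genes tested, 0.0387% rose past the threshold and 4.23% were higher at that p. The median over all genes was 0, and the share of them on each side of 0 is not given here. Their median log2 change was 0.52, and it ranged from 0.43 to 0.59 over the alternative settings. The summed level of the list was 427 to 526 RPKM in fed libraries and 640 to 987 RPKM in fasted libraries. Without fasted 1 the number past the threshold was 1, with 11 higher at an unadjusted p under 0.05 and a median of 0.54. Leaving out fasted 3 gave 4, 11 and 0.52.

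Fam107a (chr14:8296274-8318023), an actin-binding protein of neurons and astrocytes, had the lowest p of all genes. Fed libraries held 47.2, 58.8, 33.8, 61.0 and 55.3 RPKM and fasted libraries 92.9, 93.4, 82.4, 111.6 and 81.1 RPKM, with a wide gap between the groups. The log2 change was 0.86 (SE 0.12, adjusted p = 0.000651). Glul encodes glutamine synthetase, which astrocytes use to clear glutamate. It held 193.3, 161.8, 144.0, 163.0 and 166.5 RPKM in fed and 250.1, 247.9, 227.6, 268.5 and 192.0 RPKM in fasted libraries, where fasted 5 was just below the highest fed library. Its log2 change was 0.51 (SE 0.10, adjusted p = 0.0502), and 12.6% of its 50-base stretches recur in the pseudogene Glns-ps1.

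Cdkn1a (chr17:29090976-29100727), which encodes the cell cycle inhibitor p21, had the largest log2 change of the 19 genes. It held 2.90, 7.94, 1.58, 2.22 and 6.12 RPKM in fed and 12.4, 20.9, 18.1, 21.9 and 11.6 RPKM in fasted libraries, a 4.09-fold difference of the means (log2 change 1.92, SE 0.39, adjusted p = 0.0613). Both groups spread widely and did not overlap. Mt2, a metallothionein that binds zinc, held 107.4, 61.2, 76.3, 125.3 and 115.6 RPKM in fed and 259.5, 263.8, 111.0, 287.4 and 149.7 RPKM in fasted libraries. Fasted 3 lay within the fed range (log2 change 1.09, SE 0.23, adjusted p = 0.0845), and 73.5% of the exon length of Mt2 overlaps Gm45774, so its reads cannot be assigned with certainty.

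Other members of the list are given here because of their place in it, chosen after their values were seen. Klf9, a transcription factor that thyroid hormone also induces, held 12.4 ± 2.01 and 20.4 ± 2.70 RPKM without overlap (log2 change 0.69, adjusted p = 0.238). Mt1, the neighbour of Mt2, held 81.0 ± 10.9 and 123 ± 20.9 RPKM without overlap (0.59, adjusted p = 0.296). Zbtb16 held 1.75 ± 1.004 and 6.75 ± 3.19 RPKM (1.48, adjusted p = 0.264), and Fkbp5, which binds the glucocorticoid receptor complex, 2.94 ± 2.15 and 7.04 ± 1.89 RPKM (1.13, adjusted p = 0.29). Members with little difference included the kinase Sgk1 at 5.20 and 5.49 RPKM (0.08), the phosphatase Dusp1 at 11.2 and 13.2 RPKM (0.14) and the metabolic kinase Pdk4 at 0.867 and 0.852 RPKM (-0.04).

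**Figure D3:**
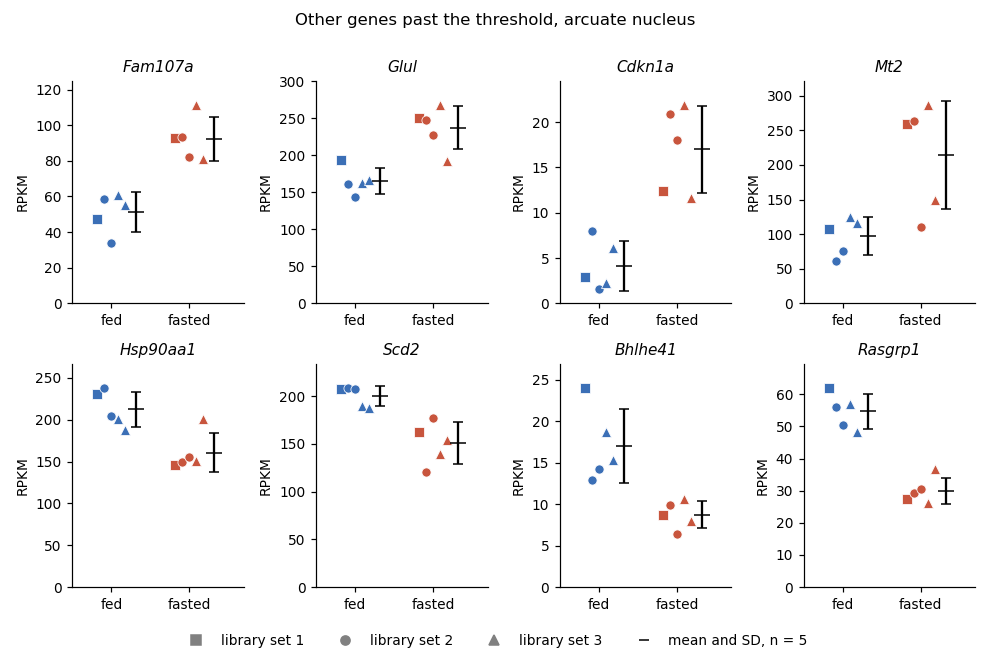
RPKM of 8 other genes past the threshold in each arcuate library, with the mean and SD of 5 libraries and a marker shape for each set of libraries. The upper row shows glucocorticoid-induced genes, of which Fam107a and Cdkn1a do not overlap between fed and fasted libraries, and the lower row shows genes that fell, where fasted 5 of Hsp90aa1 lies among the fed values.

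Promoters were searched for the DNA element of the glucocorticoid receptor, GNACANNNTGTNC, which is its own reverse complement. RefSeq promoters (GRCm38.p6) from 250 bases before to 50 bases after each start were used. The element was present in 0.475% of all 32851 promoters, and in 4 of 31 promoters from 3 of the 19 list genes matched. These genes were Fam107a, Mt1 and Sgk1, and their stretches are printed 5′ to 3′ on the strand of the gene, with the element in capitals, because 2 of them are among the genes whose libraries did not overlap and the third is not. The stretches are chr14:8309780-8310029 (minus strand) for Fam107a, chr8:94178987-94179016 (plus) for Mt1 and chr10:21993694-21993723 (plus) for Sgk1. For each gene, the start used was the one farthest upstream among those whose promoter held the element. In Fam107a that start lies inside the bounds of the gene given above. All 250 bases before it are shown for Fam107a, and the element lies 118 to 106 bases before it.
Fam107a: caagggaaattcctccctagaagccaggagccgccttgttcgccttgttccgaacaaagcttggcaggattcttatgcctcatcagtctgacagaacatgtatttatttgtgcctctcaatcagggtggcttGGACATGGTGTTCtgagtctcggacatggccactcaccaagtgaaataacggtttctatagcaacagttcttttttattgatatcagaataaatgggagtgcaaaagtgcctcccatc
Mt1: cactatagGGACATGATGTTCcacacgtca
Sgk1: tgcggaaaGAACAGAATGTTCtcggagatt
The log2 changes of these 3 genes were 0.86, 0.59 and 0.08. A match is a description of letters, and occupancy was not measured.

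Cytosolic chaperones lay in the other direction. These proteins fold other proteins, and many of their genes are driven by the heat shock factor HSF1. Of 23 genes, 1 fell and 0 rose past the threshold, 8 were lower at an unadjusted p under 0.05, and 22 had a log2 change below 0. Of all genes tested, 0.0179% fell past the threshold and 3.27% were lower at that p. The median was -0.32 and ranged from -0.35 to -0.25 over the alternative settings, and the summed level was 2065 to 2534 RPKM in fed and 1656 to 2058 RPKM in fasted libraries. Without fasted 1, 0 passed the threshold and 6 were lower at an unadjusted p under 0.05, with a median of -0.25. Without fasted 3, 1 passed and 10 were lower at that p, with a median of -0.33.

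Hsp90aa1 (chr12:110690605-110702728) encodes the inducible form of HSP90, which also holds steroid receptors ready to bind hormone. It held 230.4, 237.4, 204.8, 200.9 and 188.2 RPKM in fed and 145.5, 149.6, 155.8, 151.1 and 201.0 RPKM in fasted libraries. Fasted 5 stood among the fed libraries and the other 4 were below them all (log2 change -0.41, SE 0.08, adjusted p = 0.0361). Of its 50-base stretches 47.5% recur in the pseudogene Gm12346. Hspa4 held 81.7, 82.7, 82.8, 81.1 and 70.2 RPKM in fed and 53.8, 65.3, 60.9, 69.1 and 63.3 RPKM in fasted libraries, just without overlap (-0.35, SE 0.09, adjusted p = 0.223). Hsph1, a partner of HSP70, held 166 ± 18.3 and 125 ± 16.1 RPKM, also without overlap (-0.40, adjusted p = 0.476). Hsf1 itself held 29.7 ± 5.21 and 21.3 ± 3.18 RPKM (-0.46, SE 0.20, adjusted p = 0.647). The abundant Hsp90ab1 and Hspa8 differed less, with log2 changes of -0.19 and -0.15, and the small chaperone Hspb8 was the member above 0, at 15.2 ± 2.64 and 23.0 ± 7.70 RPKM (0.52, adjusted p = 0.884).

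The heat shock element GAANNTTCNNGAA was searched on both strands (as TTCNNGAANNTTC on the other) in the same promoters. It was present in 0.603% of all promoters, and in 5 of 24 promoters from 4 of the 18 chaperone genes matched, namely Chordc1, Hspd1, Hspe1 and Hsph1. Their stretches are shown with the element in capitals, or overlapping elements as 1 run, because all 4 genes belong to the group that was lower. Hspd1 and Hspe1 start in opposite directions from a shared promoter, so that their stretches (chr1:55088053-55088082, minus and plus strand) are the same bases read from both strands. The others are chr9:18292260-18292289 (plus) for Chordc1 and chr5:149636287-149636316 (minus) for Hsph1.
Chordc1: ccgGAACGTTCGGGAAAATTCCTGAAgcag
Hspd1: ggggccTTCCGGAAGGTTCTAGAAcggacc
Hspe1: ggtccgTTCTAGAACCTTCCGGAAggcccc
Hsph1: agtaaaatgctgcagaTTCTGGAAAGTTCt
Log2 changes were -0.33 for Chordc1, -0.36 for Hspd1, -0.13 for Hspe1 and -0.40 for Hsph1, and none of the 4 had an adjusted p under 0.1.

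Chaperones of the endoplasmic reticulum, which the unfolded protein response controls, differed less. Of 20 genes of that response 0 passed the threshold and 1 was lower at an unadjusted p under 0.05, with a median of -0.04. Dnajb9 was that gene, at 30.6 ± 7.32 and 22.1 ± 3.86 RPKM (log2 change -0.43, adjusted p = 0.647). Hspa5, its central chaperone, held 175 and 173 RPKM (-0.04, SE 0.12).

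Genes of lipid synthesis included 1 that fell. Scd2 (chr19:44293674-44306864), the main stearoyl-CoA desaturase of brain, held 207.1, 208.3, 207.4, 189.9 and 188.0 RPKM in fed and 162.9, 120.8, 176.9, 139.7 and 154.3 RPKM in fasted libraries. The groups did not overlap (log2 change -0.42, SE 0.09, adjusted p = 0.0737), and Scd2 shares 3.97% of its 50-base stretches with Scd1. Scd1 held 39.4 ± 2.56 and 27.5 ± 5.85 RPKM without overlap (-0.53, SE 0.14, adjusted p = 0.277). Srebf1, the transcription factor that drives fatty acid synthesis, held 11.9, 3.62, 2.46, 8.13 and 10.9 RPKM in fed and 2.71, 3.36, 1.47, 3.41 and 2.09 RPKM in fasted libraries. It was high in 3 fed libraries and as low as the fasted ones in the other 2 (-1.07, SE 0.29, adjusted p = 0.277, exact permutation p = 0.0556). Of 16 genes of this list, 1 fell past the threshold, 5 were lower and 1 was higher at an unadjusted p under 0.05, and the median was -0.19. The desaturase Fads1 and the synthase Fasn were also without overlap, at 64.6 ± 7.66 and 45.3 ± 2.97 RPKM and at 18.9 ± 1.34 and 15.6 ± 1.07 RPKM (adjusted p = 0.446 and 0.657).

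In cholesterol synthesis 0 of 24 genes passed, 5 were lower and 0 higher at an unadjusted p under 0.05, and the median was -0.21. Hmgcs1, an early enzyme of the pathway, held 40.9 ± 4.67 and 29.3 ± 2.63 RPKM without overlap (-0.47, SE 0.12, adjusted p = 0.251). The regulator Insig1 held 24.3 ± 6.69 and 15.7 ± 4.11 RPKM (-0.61, adjusted p = 0.552). The later enzymes Sqle and Fdps had log2 changes of 0.02 and 0.05.

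In fatty acid oxidation and ketone use 0 of 24 genes passed, with a median of -0.05. Angptl4, an inhibitor of lipoprotein lipase that fasting induces in other tissues, held 1.07, 0.440, 0.317, 0.918 and 0.606 RPKM in fed and 4.67, 1.22, 1.46, 1.71 and 1.69 RPKM in fasted libraries. The groups did not overlap, and fasted 1 stood far above the rest (log2 change 0.84, SE 0.27, adjusted p = 0.445). The carnitine transferase Cpt1a held 5.05 and 5.01 RPKM (-0.06), and the kinase Pdk4 was given above.

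Of the 19 clock genes 1 fell. Bhlhe41 and its relative Bhlhe40 encode repressors that act on clock genes. Bhlhe41 (chr6:145858243-145865558) held 24.0, 12.9, 14.2, 18.6 and 15.3 RPKM in fed and 8.70, 9.86, 6.41, 10.6 and 7.99 RPKM in fasted libraries, without overlap (log2 change -0.87, SE 0.19, adjusted p = 0.0845), and 19.05% of its exon length overlaps Gm43909. Bhlhe40 held 42.5, 34.2, 25.6, 30.1 and 28.5 RPKM in fed and 18.1, 18.6, 10.9, 14.2 and 25.1 RPKM in fasted libraries, and its groups were just apart (-0.88, SE 0.20, adjusted p = 0.143). Of the list 4 genes were lower and 0 higher at an unadjusted p under 0.05, and the median was -0.21. Clock, the activator, held 21.2 ± 3.94 and 16.7 ± 2.202 RPKM (-0.32, adjusted p = 0.647) and its partner Arntl 6.85 ± 1.45 and 4.56 ± 0.807 RPKM (-0.49, adjusted p = 0.708). The period genes Per1 and Per2 had log2 changes of 0.40 and 0.25 (adjusted p = 0.742 and 1).

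**Figure D4:**
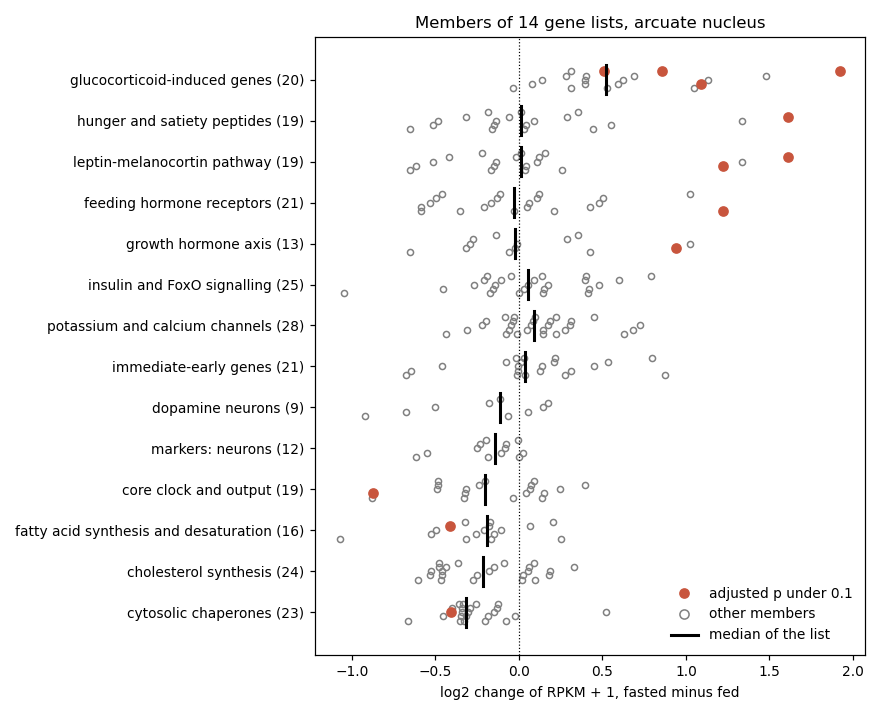
Log2 change of each tested member of 14 gene lists in the arcuate nucleus, fasted minus fed, with the number of members in brackets, filled points for an adjusted p under 0.1 and a bar for the median of the list. The list medians run from 0.52 for glucocorticoid-induced genes to -0.32 for cytosolic chaperones, and most lists centre near 0.

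The other genes past the threshold have no single role. Rasgrp1 (chr2:117279993-117343001), which links calcium and diacylglycerol to RAS, was higher in the fed ARC than in the mean of the other nuclei by 2.77 on the log2 scale. It held 61.8, 55.9, 50.5, 57.0 and 48.2 RPKM in fed and 27.3, 29.3, 30.4, 26.2 and 36.7 RPKM in fasted libraries, with a wide gap between the groups (log2 change -0.85, SE 0.17, adjusted p = 0.0506). Ptprk, a receptor tyrosine phosphatase, held 23.9, 22.8, 17.7, 15.3 and 20.4 RPKM in fed and 43.9, 27.9, 33.2, 36.2 and 31.6 RPKM in fasted libraries, without overlap (0.76, SE 0.16, adjusted p = 0.0613). In the list of growth arrest and calcium-RAS genes, Rasgrp1 was the 1 of 15 that passed, and Rasgrf1, a related exchange factor, held 251 and 280 RPKM (0.16, adjusted p = 0.647).

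Several of the 19 were low. E230001N04Rik, a long non-coding RNA gene on chromosome 17, held 1.27 ± 0.233 and 4.97 ± 3.42 RPKM without overlap (log2 change 1.23, adjusted p = 0.0547), with fasted 1 highest at 10.5 RPKM and up to 121 estimated reads. ENSMUSG00000074303, an ID with no symbol, held 2.31, 3.81, 1.38, 1.13 and 1.36 RPKM in fed and 5.77, 3.59, 8.21, 4.90 and 4.31 RPKM in fasted libraries (1.11, SE 0.19, adjusted p = 0.0158), from 0.422 to 34.2 reads. Fed 2 and fasted 2 crossed in that gene. The tight junction gene Cldn2 held 1.89 ± 0.548 and 0.719 ± 0.380 RPKM (-0.76, adjusted p = 0.0506) on at most 29.9 reads, and Ascl4 1.03 and 1.99 RPKM (0.54, adjusted p = 0.0809) on at most 12.8. Meltf, a transferrin relative, held 12.8, 1.84, 0.689, 3.60 and 1.02 RPKM in fed and 0.218, 0.594, 0.304, 0.436 and 0.456 RPKM in fasted libraries (-1.37, adjusted p = 0.0845), and without fed 1 its log2 change was -0.89 and its adjusted p was 0.133. Gm6899 and Gm15740 rested on at most 1.90 and 4.52 reads a library, and Gm6899 shares 76.7% of its exon length with Vrk2.

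Markers of other ARC neurons gave no gene past the threshold. Among 9 genes of dopamine neurons, Ddc, which makes dopamine from DOPA, held 20.4, 9.81, 12.2, 13.98 and 13.4 RPKM in fed and 11.5, 5.12, 6.93, 4.57 and 6.998 RPKM in fasted libraries. Only fasted 1 lay within the fed range (log2 change -0.92, SE 0.25, adjusted p = 0.277). Nr4a2, a transcription factor of dopamine neurons and an immediate-early gene, held 8.15 ± 3.05 and 4.48 ± 0.697 RPKM (-0.68, adjusted p = 0.543), while Th, the first enzyme of the pathway, held 25.7 and 23.5 RPKM (-0.07, SE 0.30). Of 7 genes of kisspeptin neurons tested, 0 reached an unadjusted p under 0.05, and Tac2, the neurokinin B gene, held 106 ± 46.8 and 79.8 ± 6.27 RPKM.

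Immediate-early genes, which neurons switch on with activity, showed 0 of 21 past the threshold and a median of 0.04. Fos held 4.45 ± 1.54 and 6.004 ± 3.36 RPKM (log2 change 0.31, SE 0.43) and Junb 2.33 ± 0.635 and 5.07 ± 2.14 RPKM (0.80, SE 0.30, adjusted p = 0.613). Of 28 potassium and calcium channel genes 0 passed, 4 were higher and 0 lower at an unadjusted p under 0.05, and the median was 0.09. Kcnn2, an SK channel, held 2.91 ± 1.16 and 5.44 ± 2.21 RPKM (0.72, adjusted p = 0.543), and the sulphonylurea receptor Abcc8 1.49 ± 0.651 and 3.52 ± 3.20 RPKM (0.68, adjusted p = 0.647). In both, fasted 1 was the highest library, at 9.28 and 9.14 RPKM, and within it and fed 1 the log2 changes were 2.24 and 2.48, against at most 0.43 in the other 2 sets.

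Lists of synaptic, autophagy, cell cycle, thyroid and cold-inducible genes held no gene past the threshold besides Cdkn1a. Of 22 genes of GABA and glutamate transmission 0 passed, with a median of -0.09, and the glutamate receptor subunit Grin1 held 17.7 and 21.1 RPKM (log2 change 0.25, SE 0.10, adjusted p = 0.647). Autophagy and lysosome genes had 0 of 24 at an unadjusted p under 0.05 and a median of -0.01. In the list of 15 cell cycle inhibitors and p53 targets, 3 genes were higher and 0 lower at an unadjusted p under 0.05 and the median was 0.14, with Btg2 at 2.94 ± 1.45 and 6.01 ± 1.75 RPKM (0.87, adjusted p = 0.647) and Mdm2, a p53 target, at 16.0 and 18.1 RPKM (0.17, SE 0.16). Of the 11 genes of thyroid hormone handling tested, 0 passed, the median was 0.00, and Hr held 1.29 ± 0.558 and 3.91 ± 2.43 RPKM without overlap (1.03, adjusted p = 0.401). The 4 cold-inducible genes had a median of 0.195, and Rbm3 among them held 7.41 and 12.9 RPKM (0.71, SE 0.20, adjusted p = 0.296).

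Of the Prader-Willi region, the subject of the study, 3 genes were tested. Ndn, which encodes necdin, held 297.0, 379.2, 302.1, 355.4 and 310.5 RPKM in fed and 471.9, 375.4, 356.1, 430.5 and 377.8 RPKM in fasted libraries, groups that overlap (log2 change 0.29, SE 0.14, adjusted p = 0.648). The ubiquitin ligase gene Ube3a held 29.8 ± 1.22 and 34.9 ± 4.01 RPKM, with each fasted library above the fed ones (0.22, SE 0.12, adjusted p = 0.721). Magel2 held 21.9 ± 4.71 and 24.3 ± 2.999 RPKM (0.16, SE 0.13).

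Cell type markers were set beside these results, and their part in them was not tested. Of 12 neuronal markers 0 passed the threshold, 10 had a log2 change below 0, 3 were lower at an unadjusted p under 0.05 (3.27% of all genes tested were), and the median was -0.15. Their summed level was 1379 to 1502 RPKM in fed and 1278 to 1405 RPKM in fasted libraries. Tubb3 was the lowest at 77.2 ± 16.7 and 50.3 ± 12.1 RPKM (-0.61, adjusted p = 0.277), while Snap25 and Map2 had log2 changes of 0.00 and 0.02. Microglial markers had 10 of 12 below 0, with a median of -0.17 and summed levels of 119 to 169 RPKM and of 83.8 to 137 RPKM. Markers of astrocytes, which express Glul, had a median of 0.02 over 12 genes and summed levels of 479 to 526 RPKM in fed and 460 to 548 RPKM in fasted libraries. Medians were -0.02 over 11 oligodendrocyte markers, -0.20 over 7 markers of their precursors, -0.01 over 11 of vessels, 0.02 over 14 of tanycytes and ependyma and 0.07 over 5 of blood, and 0 of these genes passed. Among markers of neighbouring nuclei 0 passed, with medians of -0.06 over 7 ventromedial, -0.04 over 5 dorsomedial and lateral and 0.04 over 7 paraventricular markers. Their summed levels were 40.8 to 52.2, 18.8 to 39.9 and 35.7 to 183 RPKM in fed and 29.7 to 52.1, 8.63 to 41.3 and 34.8 to 104 RPKM in fasted libraries. The vasopressin gene Avp, a marker of the paraventricular nucleus, held 43.6, 14.7, 31.6, 30.3 and 6.36 RPKM in fed and 6.05, 20.8, 5.17, 11.9 and 11.7 RPKM in fasted libraries (log2 change -1.02, SE 0.36, adjusted p = 0.545). The dorsomedial marker Ppp1r17 held 15.3 ± 6.34 and 8.33 ± 3.03 RPKM (-0.80, SE 0.26, adjusted p = 0.459). Both were lower at an unadjusted p under 0.05, with all 5 fasted libraries below the fed mean and groups that overlapped. Medians were 0.03 over 86 ribosomal protein genes and -0.05 over 89 respiratory chain genes, of which 7 were lower and 0 higher at an unadjusted p under 0.05.

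The response of the ARC was then compared with that of the ventromedial (VMH), dorsomedial (DMH) and paraventricular (PVN) nuclei of mice under the same feeding. Per the methods, the ARC and these nuclei were dissected from the same brains, but the labels do not say which libraries of different nuclei belong to 1 mouse. The fit therefore treated all libraries as independent, and its SEs and p-values leave out what libraries of 1 mouse share. The threshold was also passed by 3 of the 19 genes among the VMH libraries, by 3 for the DMH and by 5 for the PVN, and 13 passed it in none of these. The shares of all genes past it were 0.131%, 0.0238% and 0.0715%. The test of the difference between the ARC and the mean of the other nuclei put 0 of 33579 genes past the threshold by limma (0.0%), with 1432 at an unadjusted p under 0.05 (4.26%). The genes therefore are not shown to respond in the ARC alone.

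Lepr had the lowest p in this test. Its log2 changes in the VMH, DMH and PVN were 0.30, 0.16 and -0.08, and the ARC exceeded their mean by 1.10 (SE 0.20, adjusted p = 0.132). Ghr had 0.17, 0.30 and -0.06 (difference 0.81, SE 0.17, adjusted p = 0.268), and Agrp -0.13, 0.18 and -0.16 (1.65, adjusted p = 0.435). Agrp was low in the fed VMH, DMH and PVN, at 3.71 ± 2.57, 3.49 ± 1.78 and 5.05 ± 3.68 RPKM, beside a no-read level of 1.08 RPKM. The part of these low levels in its difference was not tested. Of the 19 genes, 13 had an unadjusted p under 0.05 for the difference between the ARC and the other nuclei. The 6 that did not were the 4 glucocorticoid-induced genes with Hsp90aa1 and Scd2. The 19 were picked by their change in the ARC, which is a part of this difference. The count of 13 therefore describes them and adds no separate support. Fam107a rose by 0.80 in the DMH and by 0.81 in the PVN (adjusted p = 0.00391 and 0.000437) and had 0.41 in the VMH (adjusted p = 0.21). Cdkn1a had 1.58, 1.34 and 1.81 in the VMH, DMH and PVN, past the threshold in the VMH and the PVN. Mt2 had 1.10, 1.40 and 0.71, past it in the VMH and the DMH.

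**Figure D5:**
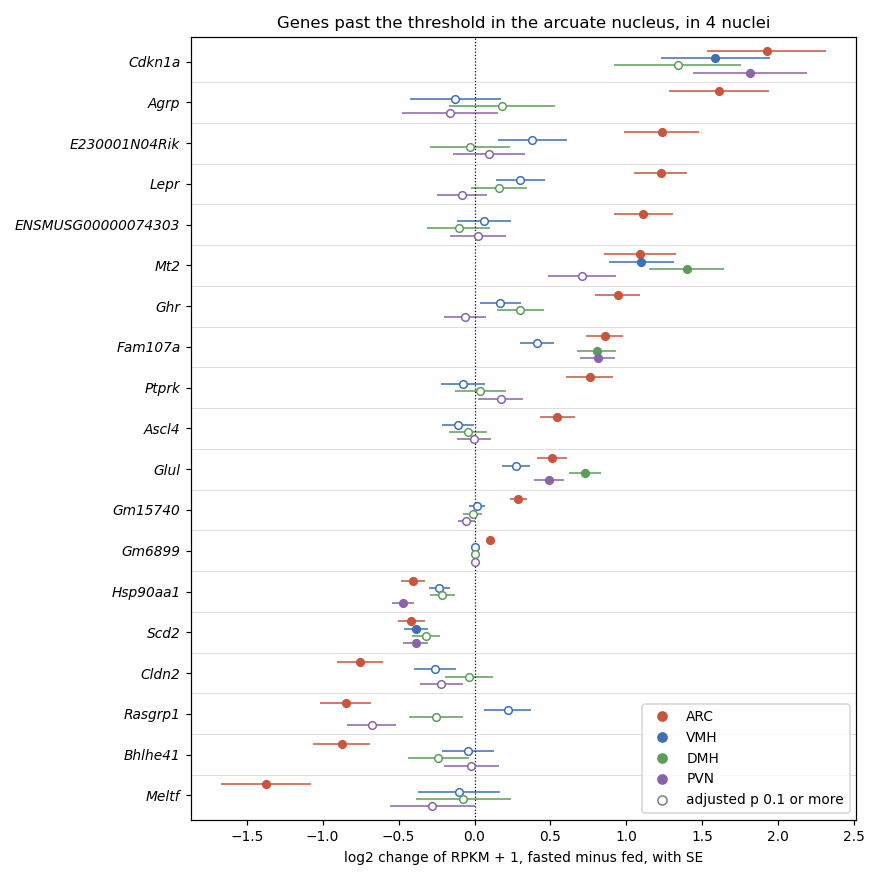
Log2 change, fasted minus fed, of the 19 genes past the threshold in the arcuate nucleus, in each of 4 hypothalamic nuclei, with SE bars and filled points for an adjusted p under 0.1. Cdkn1a, Mt2, Fam107a, Glul, Scd2, Hsp90aa1, Bhlhe41, Cldn2 and Meltf lie on the same side of 0 in all 4 nuclei. Lepr, Ghr, Agrp and Ptprk lie near 0 outside the arcuate nucleus, where Agrp was also low in fed libraries.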

How the data were processed

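Per the labels and the methods of the study, ARC, VMH, DMH and PVN were laser-captured from wild-type mice in 3 batches. The authors mapped reads to GRCm38 with TopHat2 2.0.11 (CASAVA 1.7 and Cufflinks 2.2.1 are also in the submitters' processing notes), worked with edgeR and limma, and removed outlier samples. The deposited values are RPKM for 37907 Ensembl IDs. The table held 0 zeros: a count of 5 reads in the mean library (4.19 to 9.59 in the ARC) had been added and the means of 3 sets of libraries removed before deposit, as read from recurring lowest values. Depth was estimated from that count, with 97.6% to 98.5% of low ARC values a whole number of reads (within 0.05) above the lowest value. Fold changes near the floor are understated.

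GENCODE M21 named 35965 IDs and gave positions. A gene was kept where 4 or more of the 42 libraries reached 1 RPKM (33579 genes). The no-read level had a median of 1.601 RPKM, so genes with few or no reads could pass this filter. Shares and medians over all genes tested include such genes. They are therefore no matched background for lists of expressed genes. limma 3.58.1 in R 4.3.3 was fitted to log2(RPKM + 1) with a mean for each of 8 groups and no covariate, in place of the count model of the study, with an intensity trend, two-sided tests and Benjamini-Hochberg adjustment over all genes, at a threshold of 0.1. Every adjusted p is from this fit. Exact permutation tests were two-sided. Tested on simulated data, the fit found 86.5% of 89 genes with a log2 change of 1 and 97.3% of 111 with a log2 change of 2 among 33579 genes, with 23 false calls. The simulated noise was normal, with the same spread of a gene in every library. Changed genes were drawn at random from all genes kept, also those with few reads. The shares therefore check the fit and do not give its power for the genes named here.

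Named were the genes past the threshold, the leptin-melanocortin list, the members of each other list with the lowest p, and the top member of each marker list. Further list members were named after their values were seen. The comparison, the lists and the members were chosen with earlier results of these data known. Because the reads carry no strand, overlapping and duplicated genes can share reads. Alternatives were other pseudocounts, filters, scalings, weights and covariates, and leaving out each ARC library. Values of some list members are not reported here.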

Additional observations from a re-analysis of the deposited data

Results flagged for a closer look

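In 20 of 202 groups of 5 libraries (101 named genes, fed and fasted), 1 library stood apart from the other 4 by more than Dixon's 95% critical ratio of 0.71. A rate of 1 in 20 would give about 10.1 such values. That rate assumes normal values and independent groups, while the ratio was taken on RPKM of genes named partly by their p. The 2 numbers therefore do not measure an excess. They lay in 7 libraries, with 5 in fasted 1, 4 each in fasted 3 and fasted 4, 2 each in fed 1, fed 2 and fed 5, and 1 in fasted 5. No explanation of them was tested.

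Of the genes past the threshold, 4 held such a value. Agrp was 596.9 RPKM in fasted 4 against 341.2 to 403.4 in the other fasted libraries, and without it the log2 change was 1.46 with an adjusted p of 0.118. Meltf was 12.83 RPKM in fed 1 against 0.689 to 3.60 in the other fed libraries, and without it the log2 change was -0.89 with an adjusted p of 0.133. In the other two the result was larger without the library. Hsp90aa1 was 201 RPKM in fasted 5 against 145.5 to 155.8, with a log2 change of -0.49 and an adjusted p of 0.000656 without it. Ascl4 was 1.682 RPKM in fed 5 against 0.808 to 0.966, with 0.65 and 0.0141 without it.

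The remaining values belong to genes that did not pass the threshold. In fasted 1, Angptl4 was 4.674 RPKM, Kcnn2 9.275, Abcc8 9.137, Hr 8.183 and Ube3a 41.89 RPKM, each the highest of the fasted libraries. Without that library their log2 changes were 0.61, 0.54, 0.34, 0.78 and 0.15. In fasted 3, Htr1b was 0.9728 RPKM, the lowest fasted library, and Foxo6 (3.171), Gch1 (8.337) and Ttr (23.5 RPKM) were the highest. Ttr, a gene of the choroid plexus, had a log2 change of 0.64 with that library and 0.14 without it. In fasted 4, Nr4a2 was lowest at 3.272 RPKM, and the oligodendrocyte gene Mal (30.34) and the microglial gene Itgam (7.191 RPKM) were highest. In fed 1, Sh2b1 was highest at 11.05 RPKM. In fed 2, the astrocyte gene Aqp4 (20.76) and Itgam (4.232 RPKM) were lowest, and in fed 5, Hspa4 was lowest at 70.19 RPKM. Leaving out the library concerned brought none of these genes to an adjusted p under 0.1.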

How the results depend on the processing

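Of 2190 values of the 101 named genes under up to 22 alternatives, 2017 kept their direction and side of the threshold, 146 in 19 genes lost the threshold, 5 in 4 genes gained it and 22 in 6 genes changed sign. The number of genes past the threshold in the ARC was 19 as reported, 40 with array weights (17 shared), 8 with a pseudocount of 0 or of 0.1 (8 shared), 0 in the ARC libraries alone and 3 with the replicate number as a block (replicate block, 3 shared). Whether the numbers pair the samples could not be decided. The deviations of same-numbered fed and fasted libraries correlated between -0.121 and -0.042. Differently numbered libraries of the same set were also below 0, such as fasted 4 with fed 5 (-0.09) and fasted 3 with fed 2 (-0.061). The means of the sets had been removed before deposit, so these correlations cannot show a pairing or its absence. Leaving out 1 ARC library gave 6 to 31 genes. Counts from 16 to 20 came with the set as a covariate, a mean of at least 5 RPKM, no filter, median centring, quantile normalization, no trend and robust eBayes. Of the 17 genes at a mean of at least 5 RPKM, 11 were among the 19 reported. The other settings of this group shared 16 to 19. The test against the other nuclei, at 0 genes, gave 1 with array weights, 2 without a filter and 0 to 5 without 1 ARC library. The cause of these differences was not tested.

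No gene past the threshold changed sign under these alternatives. Sign changes were Mc4r (-0.0298), Cpe (0.0176) and Sim1 (-0.000364) with array weights and Bdnf (-0.00841) after quantile normalization. Without 1 ARC library, log2 changes ranged from -0.29 to 0.00758 for Mc3r, from -0.155 to 0.34 for Mc4r, from -0.0315 to 0.20 for Sh2b1, from -0.0662 to 0.0529 for Cpe, from -0.00212 to 0.0834 for Sim1 and from -0.12 to 0.16 for Bdnf. Ddc, Hmgcs1 and Bhlhe40 passed the threshold with array weights, Srebf1 without fed 3 and Bhlhe40 without fasted 5. Of 835 medians of 38 lists under the alternatives, 20 moved by more than the spread between libraries and 62 had the other sign, and that of the pars tuberalis markers had no value at a mean of at least 5 RPKM. The no-read level limits what a fold change of a low gene can show.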
